A study of Mus musculus with 8 samples.

Results

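The genes described here encode ligands, receptors, a signal carrier and feedback inhibitors of the TGF-beta and activin pathway. The 10 members were matched by symbol to a list drawn up with earlier results of these data known. They were the ligand genes Inhba, Tgfb1, Tgfb2 and Tgfb3, the receptor genes Tgfbr1, Tgfbr2 and Acvr2a, the signal carrier gene Smad3 and the inhibitor genes Smad7 and Skil. They stand among 19805 genes listed in at least 1 of the deposited tables. All 10 were listed in the ILC2 table and in the CD8 T cell table, and all 10 passed the low-count filter in each. RNA was sequenced from mouse lung group 2 innate lymphoid cells (ILC2s, innate cells known for making type 2 cytokines) and from mouse spleen CD8 T cells, the cytotoxic T lymphocytes. There were 4 groups of 2 libraries: ILC2s labelled co-cultured with CD8 T cells, ILC2s cultured alone and labelled untreated, CD8 T cells labelled co-cultured with ILC2s, and CD8 T cells cultured alone and labelled untreated. Co-culture lasted 3 days at 5 CD8 T cells to 1 ILC2, reading the stated ratio in the order in which the cells are named, and cells of each group were collected by flow cytometry. All groups were primary cells of WT genotype. The sources used here do not give strain, age, sex, culture medium, added cytokines or any antigen. Nothing says that replicates came from separate animals or cultures, so p-values cover only the spread between the libraries at hand, which may be technical.

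TGF-beta proteins are made as dimers held in a latent complex. Once released, they bind the type II receptor TGFBR2, which recruits and activates the type I receptor TGFBR1, and the pair phosphorylates SMAD2 and SMAD3, which enter the nucleus with SMAD4. Activin A, a dimer of the product of Inhba, signals to the same SMAD proteins through ACVR2A or ACVR2B and the type I receptor ACVR1B. SMAD7 blocks the type I receptors and SKIL (SnoN) represses SMAD target genes. In lymphocytes TGF-beta is known for restraining effector functions and for inducing the integrin CD103, encoded by Itgae, on CD8 T cells that reside in tissues.

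The libraries held 48072595 to 67076905 counts. ILC2 identity genes were present in the ILC2 libraries, with Il1rl1, the interleukin-33 receptor gene, averaging 2242 ± 223 CPM (a gene's reads scaled by the library's total counts) in those labelled co-cultured and 797 ± 83.7 CPM in those labelled alone (SD, n = 2 each). T cell identity genes were present in the CD8 libraries, with Cd8a averaging 952 ± 20.9 CPM labelled co-cultured and 575 ± 6.97 CPM labelled alone. The ILC2 libraries labelled alone also held genes of other lineages. Stroma markers (11 of 14 listed) summed to 115 and 119.8 CPM in ILC2 libraries labelled co-cultured, against 8854 and 9629 CPM in those labelled alone. Most of the co-cultured sum came from Lum, which was higher there (108 CPM co-cultured and 66.3 CPM alone), while the other 10 genes were lower. Macrophage markers (5 of 12 listed) summed to 16.5 and 20.3 CPM co-cultured and 191 and 188 CPM alone, and CD8 T cell markers (12 of 12) to 371 and 447 CPM co-cultured and 1718 and 1649 CPM alone. Of these 12 T cell genes 11 were lower in ILC2s labelled co-cultured, while Zap70 was higher (178 CPM co-cultured and 58.7 CPM alone). Cd8a itself stood at 6.42 CPM in ILC2s labelled co-cultured and at 254 CPM in those labelled alone. Epithelium markers (6 of 6) summed to 78.9 and 82.8 CPM co-cultured and 335 and 346 CPM alone, and granulocyte and mast cell markers (2 of 6 listed) to 23.8 and 24.0 CPM co-cultured and 158 and 128 CPM alone. These lists of stroma, macrophage, T cell, epithelium, granulocyte and mast cell genes are called the other-lineage markers below. Of the lists outside this name, endothelium markers (2 of 5 listed) summed to 168 and 152 CPM in ILC2s co-cultured and 92.8 and 88.8 CPM alone. Pecam1 was higher there and Vwf lower. Red cell and platelet markers (5 of 5) summed to 19.4 and 20.3 CPM co-cultured and 20.6 and 21.5 CPM alone. The B cell, dendritic cell, NK cell, and CD4 and regulatory T cell sums were lower co-cultured. Among the CD8 libraries, those labelled alone held more of the mast cell gene Cpa3, at 0.0151 and 0.0298 CPM co-cultured and 11.4 and 8.65 CPM alone, and of red cell and platelet markers (2 of 5 listed, Itga2b and Gp9), at 0.695 and 0.745 CPM co-cultured and 18.9 and 18.2 CPM alone. The sums of macrophage, endothelium, epithelium, B cell, dendritic cell, NK cell, and CD4 and regulatory T cell markers were instead higher co-cultured there. CD4 and regulatory T cell markers (4 of 4) summed to 43.8 and 50.5 CPM co-cultured and 16.2 and 17.6 CPM alone. Of these Cd4 and Ikzf2 were higher, Cd40lg was lower and Foxp3 was not called. The markers Col3a1, Pdgfra, Bgn, Mrc1, C1qa, C1qb, C1qc, Itgam, Marco and Mertk are not listed in the ILC2 table, which holds no gene with a 0 in any library. Both ILC2 libraries labelled alone carried the listed other-lineage markers, so no result could be given without them, and every direction below is that of the labels.

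**Figure D1:**
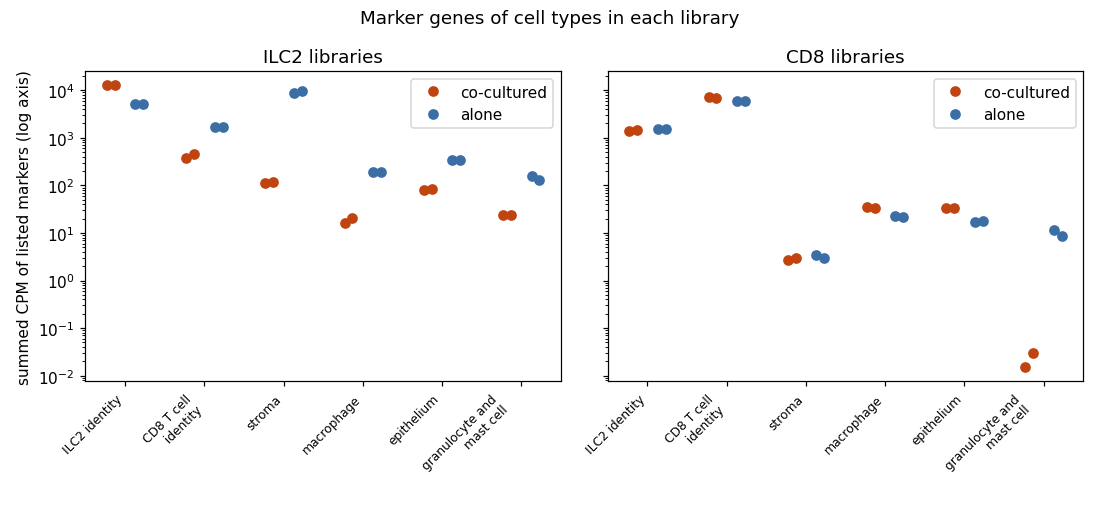
Summed CPM of the listed markers of 6 cell types (log axis), 1 point per library, with ILC2 libraries in the left panel and CD8 libraries in the right. In ILC2 libraries the stroma sum (11 of 14 genes listed) was 115 and 119.8 CPM co-cultured and 8854 and 9629 CPM alone. In CD8 libraries it was 2.71 and 2.95 CPM co-cultured and 3.46 and 3.00 CPM alone. The CD8 sum covers only 4 of the 14 genes, so the sums of the 2 panels are not of the same genes.

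In both cell types Tgfb3 was the member that rose most and Inhba and Tgfb2 were lower in libraries labelled co-cultured than in those labelled alone. The receptor gene Tgfbr2 and Smad3 also rose in both, although in ILC2s their changes turned to -0.15 and -0.54 with libraries scaled to ILC2 identity markers. In ILC2s 5 members rose, 4 fell and 1 did not pass the test (edgeR's quasi-likelihood test with Benjamini-Hochberg adjusted p under 0.05), where 66.3% of all 16739 genes tested passed, 31.8% higher and 34.4% lower. In CD8 T cells 6 members rose, 2 fell and 2 did not pass, where 60.9% of 15948 genes passed, 30.2% higher and 30.7% lower. Log2 changes are those of edgeR after TMM scaling, while CPM are by library total. Called and changed at least 2-fold were 6 of 10 members in ILC2s, where 40.3% of genes were (3 higher, 17.6% of genes, and 3 lower, 22.7%). In CD8 T cells 6 of 10 were, where 20.3% of genes were (4 higher, 9.61% of genes, and 2 lower, 10.7%). The test of the difference between the cell types passed for 4 members, all with the lower change in ILC2s, where 53.5% of 15532 genes passed and 32.6% did so with the lower change in ILC2s. In 3 of these the difference was at least 2-fold, where 30.5% of genes passed at that size, 19.5% with the lower change in ILC2s. The median log2 change of the members was 0.28 in ILC2s and 0.76 in CD8 T cells, against -0.01 and -0.005 over all genes tested. Higher in both cell types were 4 members (Tgfb3, Tgfbr2, Smad3 and Acvr2a), where 16.9% of the 14835 genes tested in both were. Inhba and Tgfb2 were lower in both, as were 17.8% of genes, and of the members only Skil was called in opposite directions, as were 10.9%. With libraries scaled to ILC2 identity markers, 1 member rose and 8 fell in ILC2s, where 474 of all 16739 genes rose and 13407 fell.

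**Figure D2:**
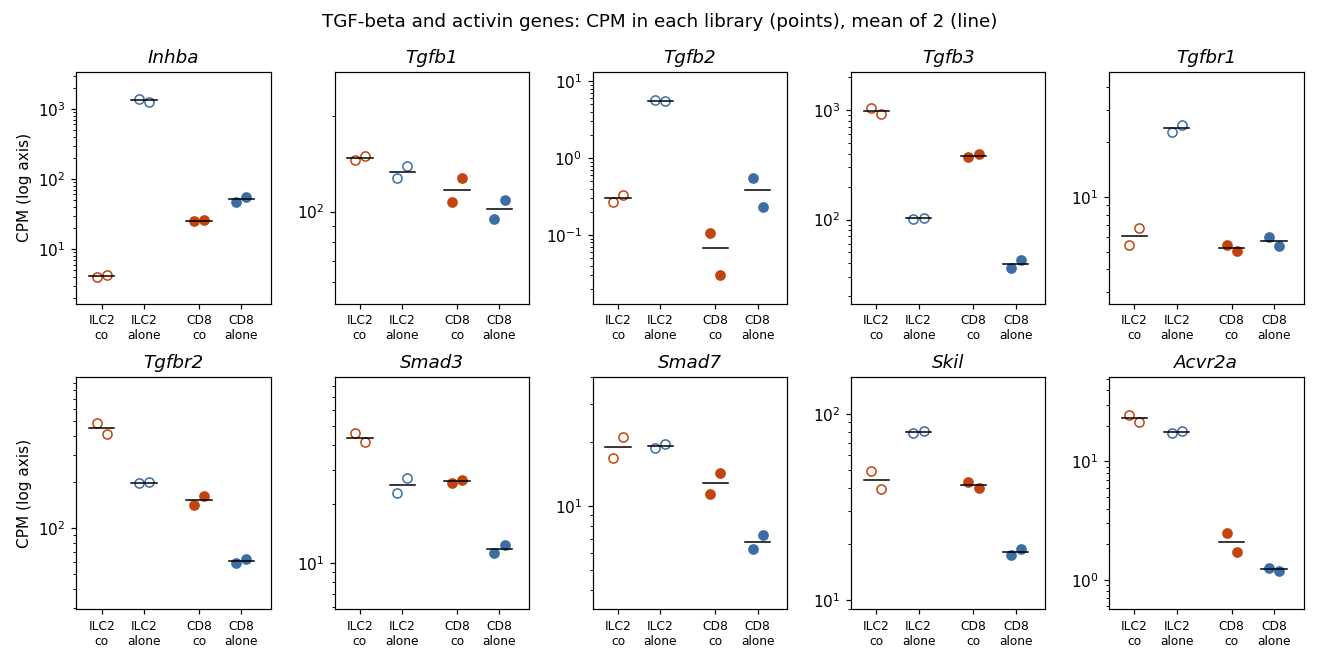
CPM of each member in every library on log axes that differ between panels. Points are libraries, open for ILC2s and filled for CD8 T cells, and lines are means of 2. Tgfb3 was higher in the co-cultured libraries of both cell types, and Inhba in ILC2s stood at 3.98 and 4.26 CPM co-cultured and 1402 and 1255 CPM alone.

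The promoters of 2 members that fell in both cell types, Inhba and Tgfb2, and of 2 that rose in both with TMM scaling, Tgfbr2 and Smad3, are shown for comparison. They are the 250 bases before the transcription start in RefSeq's GRCm38.p6 annotation, which holds an entry for 7 of the 10 members, at chr13:16011601-16011850 on the plus strand for Inhba and, on the minus strand, chr1:186705990-186706239 for Tgfb2, chr9:116175364-116175613 for Tgfbr2 and chr9:63757995-63758244 for Smad3. Each is written 5′ to 3′, with capitals for a match to the TATA box TATAAA or the GC box GGGCGG on either strand.
Inhba: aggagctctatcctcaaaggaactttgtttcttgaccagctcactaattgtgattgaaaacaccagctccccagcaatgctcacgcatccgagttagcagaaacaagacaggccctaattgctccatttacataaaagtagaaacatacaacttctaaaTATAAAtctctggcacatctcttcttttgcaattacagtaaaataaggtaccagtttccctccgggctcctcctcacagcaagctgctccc
Tgfb2: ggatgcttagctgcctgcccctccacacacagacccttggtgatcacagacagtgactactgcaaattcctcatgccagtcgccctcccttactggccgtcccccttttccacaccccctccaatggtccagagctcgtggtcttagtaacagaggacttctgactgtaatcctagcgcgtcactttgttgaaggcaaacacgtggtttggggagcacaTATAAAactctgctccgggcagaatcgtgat
Tgfbr2: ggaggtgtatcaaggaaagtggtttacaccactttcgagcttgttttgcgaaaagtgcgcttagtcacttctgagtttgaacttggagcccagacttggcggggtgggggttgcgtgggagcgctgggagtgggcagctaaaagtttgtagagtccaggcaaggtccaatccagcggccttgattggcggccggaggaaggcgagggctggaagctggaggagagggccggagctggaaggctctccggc
Smad3: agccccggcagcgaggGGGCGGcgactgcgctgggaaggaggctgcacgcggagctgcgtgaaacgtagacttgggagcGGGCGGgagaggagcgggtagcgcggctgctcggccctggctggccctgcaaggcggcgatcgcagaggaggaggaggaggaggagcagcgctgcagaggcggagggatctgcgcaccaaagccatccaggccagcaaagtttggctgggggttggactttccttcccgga
The Tgfb2 promoter had a TATAAA that began at base -31 from the start and the Inhba promoter one that began at base -91, while that of Smad3 had GGGCGG at bases -234 and -171. TATAAA was found in 12.4% of 32851 mouse promoters of this length and GGGCGG in 32.7%. None of these 4 windows held the AP-1 site TGANTCA, the cyclic AMP response element TGACGTCA or the palindromic SMAD element GTCTAGAC, which 6.75%, 1.55% and 0.167% of promoters held. The GC content was 43.2% for Inhba, 53.6% for Tgfb2, 58.4% for Tgfbr2 and 69.2% for Smad3, against a median of 52.4% over all promoters. No motif overlapped another in these windows.

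Tgfb3, the gene of the isoform TGF-beta 3, lies on the minus strand of chromosome 12 at 86056745 to 86079041 (GENCODE M21 on GRCm38, as for the positions that follow). In ILC2s labelled co-cultured it had 1053 and 933 CPM, against 102 and 103 CPM in those labelled alone. CD8 T cells had 370.4 and 400.1 CPM labelled co-cultured, against 36.1 and 42.2 CPM labelled alone. Every co-cultured library was thus far above both alone libraries of its cell type, and no groups overlapped. The log2 change was 3.50 in ILC2s (SE 0.13, edgeR adjusted p = 1.57e-09), an 11.3-fold rise that ranked 50th from the highest of 16739 genes. It was 3.22 in CD8 T cells (SE 0.094, edgeR adjusted p = 1.24e-10), a 9.29-fold rise that ranked 48th from the highest of 15948. Both rises had the same direction and passed under every alternative, from 1.94 to 3.62 in ILC2s and from 3.10 to 3.35 in CD8 T cells. The change in ILC2s did not pass as different from that in CD8 T cells (log2 difference 0.12, SE 0.15, edgeR adjusted p = 0.52), and this difference turned to -1.31 and was called with identity scaling.

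The order of Tgfb3 over the groups was ILC2s co-cultured (993 ± 85.2 CPM), CD8 T cells co-cultured (385 ± 21.0), ILC2s alone (102 ± 0.545) and CD8 T cells alone (39.2 ± 4.33, SD, n = 2 each), with no overlap between neighbours. The CD8 level was 38.8% of the ILC2 level among co-cultured libraries and 38.3% among those labelled alone. Of 4 ILC2 identity genes that were 20-fold or more higher in ILC2s than in CD8 T cells, both cultured alone (Il1rl1, Areg, Il5 and Arg1), the CD8 libraries labelled co-cultured held a median of 0.0438% and 0.0482% of the level in co-cultured ILC2s, and no marker reached more than 0.204%. The CD8 libraries labelled alone held a median of 0.438% and 0.318% of the level in ILC2s labelled alone, with at most 3.20% and 3.01%. Exons of Tgfb3 overlap those of the genes Gm37804 and Gm48008 on the other strand by up to 257 bases of 3383, and the strand setting of the counting is not given, so reads there cannot be told apart.

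Tgfb1, the gene of the isoform most lymphocytes make, lies on the plus strand of chromosome 7 at 25687002 to 25705077. Its levels differed little between the groups, with 145 and 149 CPM in ILC2s labelled co-cultured and 127 and 139 CPM in those labelled alone. Its CD8 values were 107 and 127 CPM labelled co-cultured and 94.5 and 109 CPM labelled alone, so there the groups overlapped. The log2 change was 0.35 in ILC2s (SE 0.12, edgeR adjusted p = 0.0198) and 0.12 in CD8 T cells (SE 0.097, edgeR adjusted p = 0.29). The ILC2 call ended in the fit of all 8 libraries, with library totals in place of TMM, and without ILC2 alone replicate 1 or ILC2 co-cultured replicate 1, and the direction turned with libraries scaled to ILC2 identity markers (-1.20), in a range of adjusted p of 8.6e-07 to 0.269 over 13 alternatives. In CD8 T cells Tgfb1 was called without CD8 alone replicate 2 (log2 change 0.25, edgeR adjusted p = 0.0337, range up to 0.988).

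Tgfb2, on the minus strand of chromosome 1 at 186622792 to 186705989, encodes another TGF-beta isoform and was the least abundant member, also per kilobase. Up to 80 bases of its exons overlap Gm29491 on the other strand. ILC2s labelled co-cultured had 13 and 16 reads (0.268 and 0.333 CPM), against 344 and 305 reads (5.66 and 5.50 CPM) in those labelled alone. CD8 T cells labelled co-cultured had 7 and 2 reads, against 29 and 13 reads in those labelled alone. The groups did not overlap in either cell type, but each CD8 library rested on few reads. The level in CD8 T cells was 22.6% of that in ILC2s among co-cultured libraries and 6.97% among those labelled alone. In ILC2s the fall stands beside the lower other-lineage sums of the same libraries. In the co-cultured CD8 libraries Cpa3 and the red cell and platelet markers were lower, while the macrophage and epithelium sums were higher. The part of these in either fall was not tested. The log2 change was -3.99 in ILC2s (SE 0.30, edgeR adjusted p = 4.05e-07) and -2.56 in CD8 T cells (SE 0.65, edgeR adjusted p = 0.004). The ratio of summed reads per library total was 0.176 in CD8 T cells (exact 95% interval 0.0755 to 0.368, counting error only) and 0.0538 in ILC2s (0.0357 to 0.078), and the CD8 call ended without CD8 alone replicate 1 (log2 change -1.81, edgeR adjusted p = 0.0679, range from 7.54e-04 over 12 alternatives).

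Inhba, on the plus strand of chromosome 13 at 16011851 to 16031621, encodes the inhibin beta A chain that forms activin A. It had 3.98 and 4.26 CPM (193 and 205 reads) in ILC2s labelled co-cultured, against 1402 and 1255 CPM (85162 and 69545 reads) in those labelled alone. The fall had a log2 value of -8.12 (SE 0.16, edgeR adjusted p = 1.89e-11), or 278-fold, the 54th lowest change of 16739 genes. The CD8 libraries had 24.9 and 25.9 CPM labelled co-cultured, against 47.4 and 54.9 CPM labelled alone, or -1.09 on the log2 scale (SE 0.095, edgeR adjusted p = 6.48e-07). The change in ILC2s minus that in CD8 T cells was -7.18 on the log2 scale (SE 0.16, edgeR adjusted p = 1.99e-14).

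From lowest to highest, the Inhba level was 4.12 ± 0.20 CPM in ILC2s co-cultured, 25.4 ± 0.743 CPM in CD8 T cells co-cultured, 51.2 ± 5.31 CPM in CD8 T cells alone and 1329 ± 104 CPM in ILC2s alone (SD, n = 2 each), without overlap. Beside the ILC2 fall stand the other-lineage sums given above, which were also lower in ILC2s labelled co-cultured, and their part in it was not tested. In such bulk libraries fewer cells of a type and less RNA per cell cannot be told apart. In the CD8 libraries, where Inhba fell less, stroma markers (4 of 14 listed) summed to 2.71 and 2.95 CPM co-cultured and 3.46 and 3.00 CPM alone. Of these Lum was lower (0.203 CPM co-cultured and 2.16 CPM alone), while Col1a1 and Pdgfrb were higher and Acta2 was not called. Macrophage markers (6 of 12 listed) summed to 34.8 and 32.8 CPM co-cultured and 23.0 and 21.6 CPM alone there, most of it from Cd68, while Lyz2 averaged 0.143 CPM co-cultured and 2.96 CPM alone. Cpa3 and the red cell and platelet markers, given above, were also lower in the co-cultured CD8 libraries. Il5, an ILC2 cytokine gene, averaged 0.675 CPM co-cultured and 10.2 CPM alone there. The ILC2 identity genes as a list (13 of 15 listed) split in CD8 libraries, with 5 higher and 7 lower. They summed to 1415 and 1466 CPM co-cultured and 1538 CPM in each library labelled alone. The Inhba level in CD8 T cells labelled alone was 3.85% of that in ILC2s labelled alone. The parts of these in the CD8 result were not tested. By pattern over the 8 libraries, the genes most like Inhba were Rai14, Fads3 and Olr1, an oxidised lipoprotein receptor gene, with root mean square differences of 0.751, 0.799 and 0.848 on the log2 scale after centring, among 11940 genes. Olr1 averaged 0.974 CPM in ILC2s labelled co-cultured and 237 CPM in those labelled alone (geometric means).

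Levels of different ligand genes were compared per kilobase of merged exons. In ILC2s labelled co-cultured Tgfb3 made up 91.4% and 90.1% of the summed CPM per kb of these 4 ligand genes, against 10.9% and 11.9% in those labelled alone, where Inhba made up 79.6% and 76.9%. In CD8 T cells labelled co-cultured Tgfb3 made up 81.3% and 80.2%, against 28.9% and 29.2% in those labelled alone, where Tgfb1 led with 50.7% and 50.6%. The leading ligand transcript therefore differed between libraries labelled co-cultured and alone in both cell types. The other-lineage sums were lower in the same co-cultured ILC2 libraries. Their part in these shares and in the ratios that follow was not tested. The per-kilobase ratio of Tgfb3 to Tgfb1, which no scaling of the libraries can move, was 10.8 and 9.33 in ILC2s labelled co-cultured and 1.19 and 1.10 in those labelled alone. It was 5.15 and 4.69 in CD8 T cells labelled co-cultured and 0.57 and 0.577 in those labelled alone. An exact permutation test of 2 against 2 libraries cannot pass a threshold of 0.05, so none is given for these ratios.

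**Figure D3:**
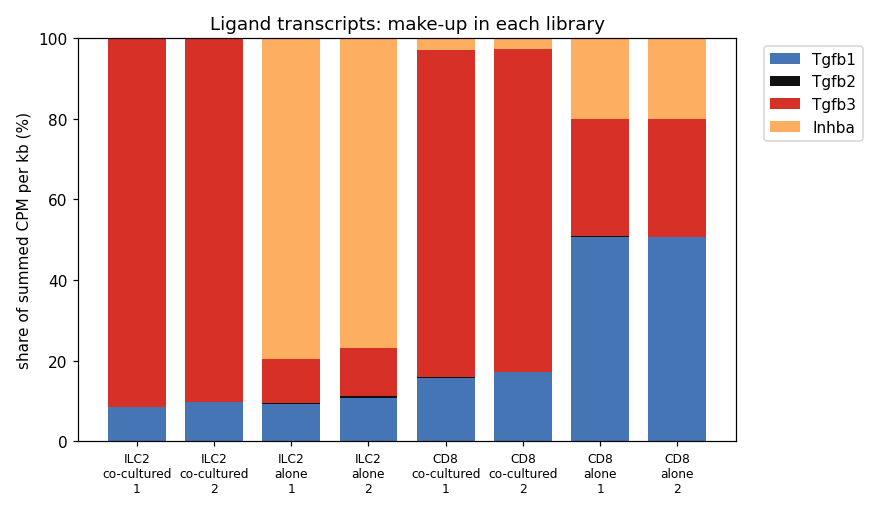
Share of each ligand gene in the summed CPM per kb of Tgfb1, Tgfb2, Tgfb3 and Inhba, 1 bar per library. Tgfb3 filled 91.4% and 90.1% of the bar in ILC2s co-cultured, against 10.9% and 11.9% in ILC2s alone, and 81.3% and 80.2% in CD8 T cells co-cultured, against 28.9% and 29.2% in CD8 T cells alone.

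The receptor genes moved apart from each other. Tgfbr2, the type II receptor that first binds TGF-beta, lies on the minus strand of chromosome 9 at 116084293 to 116175360. It had 488 and 414 CPM in ILC2s labelled co-cultured, against 196 and 201 CPM in those labelled alone, and 142 and 162 CPM in CD8 T cells labelled co-cultured, against 58.9 and 62.5 CPM in those labelled alone. It rose without overlap in both, with log2 changes of 1.40 in ILC2s (SE 0.13, edgeR adjusted p = 2.56e-06) and 1.25 in CD8 T cells (SE 0.085, edgeR adjusted p = 8.54e-08). These changes did not pass as different (edgeR adjusted p = 0.984, SE of the difference 0.15). The difference was called with identity scaling and reached -1.43 over 16 alternatives. The ILC2 change turned to -0.15 and lost its call with libraries scaled to ILC2 identity markers (adjusted p = 0.222, range from 7.4e-26 over 13 alternatives).

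Tgfbr1, on the plus strand of chromosome 4 at 47353222 to 47414931, encodes the type I receptor ALK5. It had 5.47 and 6.80 CPM in ILC2s labelled co-cultured, against 22.7 and 25.0 CPM in those labelled alone. CD8 T cells had 5.46 and 5.05 CPM labelled co-cultured and 6.06 and 5.36 CPM labelled alone, where the groups overlapped. Its level thus lay between 5.05 and 6.80 CPM in 3 of the 4 groups and was higher in ILC2s alone. The log2 change was -1.75 in ILC2s (SE 0.16, edgeR adjusted p = 1.88e-06) and -0.20 in CD8 T cells (SE 0.15, edgeR adjusted p = 0.283). The difference between them passed (log2 -1.71, SE 0.22, edgeR adjusted p = 6.38e-06). The other-lineage sums were lower in the same ILC2 libraries, and their part in this result was not tested.

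As a ratio per kilobase, Tgfbr2 to Tgfbr1 was 71.3 and 48.6 in ILC2s labelled co-cultured and 6.90 and 6.42 in those labelled alone. It was 20.8 and 25.6 in CD8 T cells labelled co-cultured and 7.76 and 9.31 in those labelled alone. Transcripts of the type II receptor outnumbered those of the type I receptor in all 8 libraries, by more in the co-cultured ones. The part of the lower other-lineage sums of the co-cultured ILC2 libraries in these ratios was not tested.

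Acvr2a encodes a type II receptor for activins and lies on the plus strand of chromosome 2 at 48814109 to 48903269. It had 24.6 and 21.6 CPM in ILC2s labelled co-cultured, against 17.4 and 18.2 CPM in those labelled alone, and 2.48 and 1.71 CPM in CD8 T cells labelled co-cultured, against 1.27 and 1.19 CPM in those labelled alone. The ILC2 level was thus 11.0 times that of CD8 T cells among co-cultured libraries and 14.4 times among those labelled alone. The log2 change was 0.59 in ILC2s (SE 0.15, edgeR adjusted p = 0.00368), which turned to -0.96 with libraries scaled to identity markers, and 0.69 in CD8 T cells (SE 0.26, edgeR adjusted p = 0.0352). The CD8 call rests on 67 to 164 reads per library and ended in 6 of 13 alternatives, among them without CD8 alone replicate 1 or 2 and without CD8 co-cultured replicate 1, with adjusted p from 0.00643 to 0.255. Exons of the gene overlap those of Orc4 on the other strand by up to 446 bases of 5686, so reads there cannot be told apart without the strand setting.

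Smad3, which carries the signal of both TGF-beta and activin receptors to the nucleus, lies on the minus strand of chromosome 9 at 63646767 to 63757994. It had 45.9 and 41.2 CPM in ILC2s labelled co-cultured, against 22.8 and 27.3 CPM in those labelled alone. CD8 T cells had 25.7 and 26.7 CPM labelled co-cultured, against 11.3 and 12.4 CPM labelled alone. The groups did not overlap in either cell type, and the log2 changes were 1.01 in ILC2s (SE 0.15, edgeR adjusted p = 8.06e-05) and 1.06 in CD8 T cells (SE 0.11, edgeR adjusted p = 2.21e-06). The difference between the cell types did not pass (log2 -0.21, SE 0.18, edgeR adjusted p = 0.35). It was called with identity scaling and reached -1.63 over 16 alternatives. The ILC2 change turned to -0.54 with libraries scaled to identity markers.

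The feedback genes differed between the cell types. Skil, on the plus strand of chromosome 3 at 31095058 to 31122577, had 49.3 and 39.4 CPM in ILC2s labelled co-cultured, against 79.2 and 81.1 CPM in those labelled alone. CD8 T cells had 42.9 and 39.9 CPM labelled co-cultured, against 17.4 and 18.7 CPM labelled alone. The co-cultured groups of both cell types thus lay within the same range of 39.4 to 49.3 CPM, with the alone groups above it in ILC2s and below it in CD8 T cells. The log2 change was -0.64 in ILC2s (SE 0.15, edgeR adjusted p = 0.00245) and 1.12 in CD8 T cells (SE 0.093, edgeR adjusted p = 4.4e-07), and the difference passed (log2 -1.91, SE 0.18, edgeR adjusted p = 1.81e-07). The part of the other-lineage markers of the ILC2 libraries in it was not tested.

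Smad7, an inhibitor that TGF-beta signals themselves induce, lies on the plus strand of chromosome 18 at 75367529 to 75395935. It had 16.7 and 21.0 CPM in ILC2s labelled co-cultured and 18.7 and 19.4 CPM in those labelled alone, so the groups overlapped (log2 change 0.20, SE 0.14, edgeR adjusted p = 0.252, and -1.35 with libraries scaled to identity markers). CD8 T cells had 11.3 and 14.3 CPM labelled co-cultured, against 6.25 and 7.27 CPM labelled alone. There it rose by 0.84 on the log2 scale (SE 0.15, edgeR adjusted p = 3.65e-04), and the ILC2 change minus the CD8 change was -0.80 (SE 0.21, edgeR adjusted p = 0.00501). By pattern over the 8 libraries the genes most like Smad7 were Rilpl1, Rps6ka4 and Map4k4, with root mean square differences of 0.123 to 0.13 on the log2 scale. Those most like Tgfb1 were Ddb1, Zfp3 and Hif1an, at 0.085 to 0.093, while Tgfb1 itself varied around its own mean by 0.218 on this measure.

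**Figure D4:**
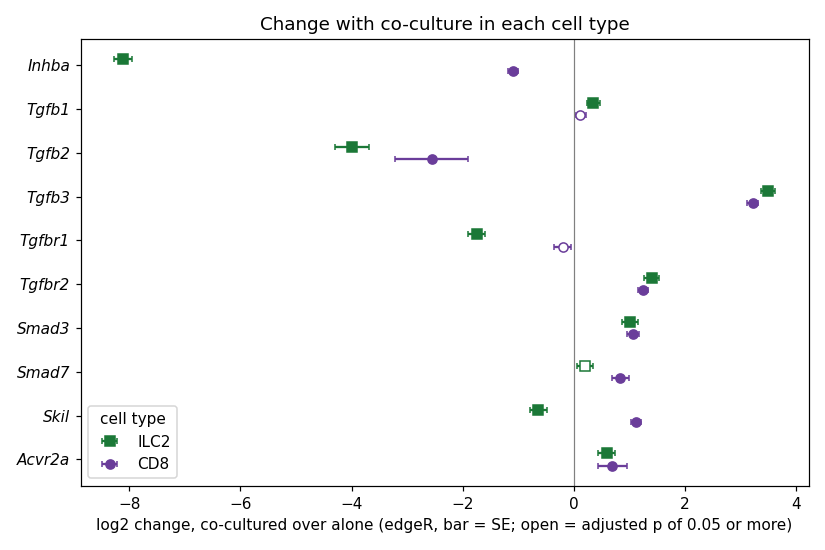
Log2 change of each member, co-cultured over alone, in ILC2s (squares) and CD8 T cells (circles), from edgeR with TMM scaling. Bars are SE and open symbols did not pass. Tgfb3, Tgfbr2, Smad3 and Acvr2a lie to the right of 0 in both cell types (in ILC2s Tgfbr2, Smad3 and Acvr2a turn to the left with identity scaling), Inhba and Tgfb2 to the left, and Skil at -0.64 in ILC2s and 1.12 in CD8 T cells.

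Directions in ILC2s depended on how the libraries were scaled. The ILC2 identity list (15 of 15 listed) summed to 12902 and 12667 CPM in libraries labelled co-cultured and to 5157 and 5131 CPM in those labelled alone. With TMM 14 of these 15 genes were higher co-cultured, with a median log2 change of 1.55. Scaling to them takes them as unchanged by co-culture, which was not tested, and Id2 is also in the list of TGF-beta responsive genes below. Scaling the libraries to those genes moved the median log2 change of all genes to -1.556, against -0.01 with TMM, and 3.41% of the genes called were then higher, against 48.0% with TMM and 38.3% with library totals alone. The log2 change of Tgfb3 remained above 0 at 1.94, the only member then called higher, while 8 members were lower and Tgfbr2 was not called. Inhba, Tgfb2, Tgfbr1 and Skil were lower under both scalings. In CD8 T cells scaling to T cell identity markers moved the median to -0.08, and no member changed direction, though Acvr2a was then not called.

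**Figure D5:**
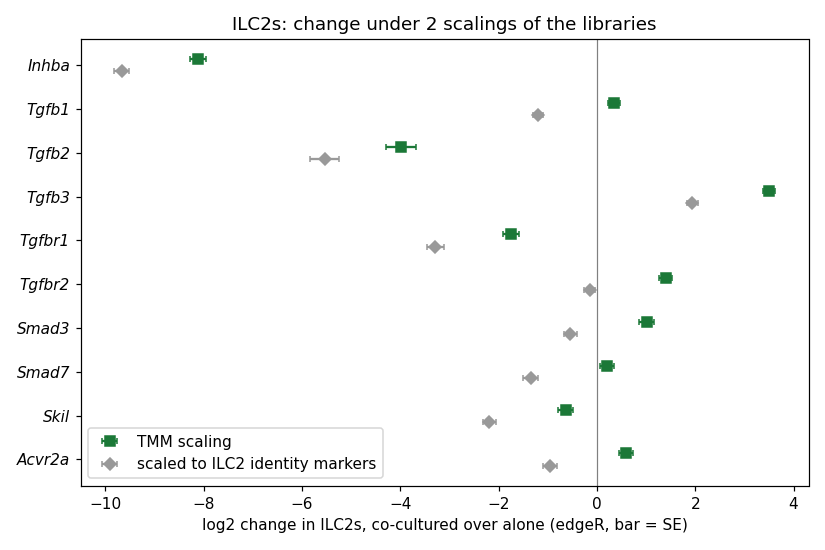
Log2 change of each member in ILC2s, co-cultured over alone, with TMM scaling (squares) and with libraries scaled to ILC2 identity markers (diamonds); bars are SE. All members lie further to the left with identity scaling, and Tgfb3 stays to the right of 0 at 1.94.

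Beyond the members, 64 other genes of the pathway were placed in 6 lists, of which 56 were tested in ILC2s and 46 in CD8 T cells. In ILC2s 22 rose and 25 fell, and in CD8 T cells 20 rose and 10 fell, with median log2 changes of -0.16 and 0.30. Of all genes tested, 31.8% rose and 34.4% fell in ILC2s, and 30.2% rose and 30.7% fell in CD8 T cells. With identity scaling 3 rose and 48 fell in ILC2s, where 474 of all 16739 genes rose and 13407 fell, and 20 rose and 11 fell in CD8 T cells, where 4208 of 15948 rose and 5374 fell. Among the other ligand genes, 1 rose and 4 fell of 7 in ILC2s and 1 rose of 3 in CD8 T cells. Bmp4 and Bmp6, of bone morphogenetic proteins, had log2 changes of -4.83 (SE 0.36) and -5.00 (SE 0.37) in ILC2s with 6 to 12 reads in each co-cultured library. Bmp7 had 10.4 and 10.7 CPM in CD8 T cells labelled co-cultured and 1.63 and 2.07 CPM in those labelled alone (log2 change 2.43, SE 0.17, edgeR adjusted p = 1.18e-07).

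Of the other receptor genes, 4 rose and 3 fell of 8 in ILC2s, and 4 rose and 1 fell of 8 in CD8 T cells. Acvrl1, encoding the type I receptor ALK1, had 2.81 and 3.39 CPM in ILC2s labelled co-cultured and 32.3 and 40.4 CPM in those labelled alone (log2 change -3.34, SE 0.18). It had 88.7 and 102 CPM in CD8 T cells labelled co-cultured and 28.9 and 29.2 CPM in those labelled alone (log2 change 1.63, SE 0.088). The co-receptor gene Tgfbr3 (betaglycan) likewise had log2 changes of -1.86 (SE 0.17) in ILC2s and 1.45 (SE 0.096) in CD8 T cells. Among genes of latency and activation, 4 rose and 5 fell of 10 in ILC2s and 2 rose and 3 fell of 8 in CD8 T cells. Thbs1, whose product thrombospondin 1 can activate latent TGF-beta, had 4.81 and 4.43 CPM in ILC2s labelled co-cultured and 1476 and 1480.1 CPM in those labelled alone (log2 change -8.11, SE 0.16), and it fell by 4.47 (SE 0.30) on the log2 scale in CD8 T cells. The latent TGF-beta binding protein gene Ltbp2 fell by 8.17 (SE 0.26) on the log2 scale in ILC2s, with 6 and 19 reads in the co-cultured libraries, and Ltbp3 had 24.0 and 28.8 CPM in CD8 T cells labelled co-cultured and 7.01 and 7.80 CPM in those labelled alone.

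Of the other SMAD genes, 1 rose and 1 fell of 4 tested in ILC2s and 2 rose of 4 in CD8 T cells. Smad4, the common partner, had log2 changes of 0.65 (SE 0.13) in ILC2s, turning to -0.90 with identity scaling, and 0.60 (SE 0.083) in CD8 T cells. Smad1, which serves bone morphogenetic protein receptors, changed by -0.74 (SE 0.14) in ILC2s and 0.36 (SE 0.089) in CD8 T cells. Of 12 feedback and inhibitor genes tested in ILC2s 5 rose and 4 fell, and of 11 in CD8 T cells 7 rose and 2 fell. Fstl3, an activin-binding follistatin-like gene, had 4.85 and 5.82 CPM in ILC2s labelled co-cultured and 64.9 and 62.3 CPM in those labelled alone (log2 change -3.36, SE 0.14). Its CD8 values were 10.8 and 11.3 CPM labelled co-cultured and 4.92 and 5.38 CPM labelled alone (log2 change 1.02, SE 0.14). The SMAD corepressor gene Tgif1 fell in ILC2s (log2 change -1.88, SE 0.14), and the ubiquitin ligase gene Smurf1 rose in CD8 T cells (1.01, SE 0.10).

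Genes known to respond to TGF-beta split, with 7 up and 8 down of 15 in ILC2s and 4 up and 4 down of 12 in CD8 T cells. In ILC2s Ccn2, the connective tissue growth factor gene (listed as Ctgf), had 1.11 and 0.395 CPM labelled co-cultured and 658 and 833 CPM labelled alone (log2 change -9.72, SE 0.32). Id3, a target of bone morphogenetic protein and T cell receptor signals, had 0.908 and 1.12 CPM co-cultured and 77.0 and 91.6 CPM alone (log2 change -6.16, SE 0.19). In CD8 T cells Itgae, the gene of CD103, had 98.3 and 112 CPM labelled co-cultured and 20.8 and 16.9 CPM labelled alone (log2 change 2.40, SE 0.11, edgeR adjusted p = 3.09e-09). Ldlrad4, a SMAD-binding inhibitor induced by TGF-beta, had 27.5 CPM in both co-cultured CD8 libraries and 4.35 and 4.98 CPM in those labelled alone (log2 change 2.48, SE 0.12). The ILC2 falls of these other pathway genes stand beside the lower other-lineage sums of the same libraries. The CD8 fall of Thbs1 stands beside the lower Cpa3 and red cell and platelet markers, and beside Lyz2 (0.143 CPM co-cultured and 2.96 CPM alone). The macrophage sum that includes Lyz2 was higher in the co-cultured CD8 libraries (34.8 and 32.8 CPM, against 23.0 and 21.6 CPM alone). The part of these was not tested.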

How the data were processed

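Values are raw counts per gene symbol as deposited, in a table of 4 ILC2 libraries (18389 genes) and a table of 4 CD8 T cell libraries (17642 genes), with no 0 in either; how unlisted genes were left out is not given. Per the labels' protocols, Trizol was used for RNA and a low-input SMART-Seq kit for libraries. Per the submitters' processing notes, the genome was mm10 and the tools were StringTie 2.1.3b, SAMtools 1.9, HISAT2 2.1.0 and Trimmomatic 0.38. Annotation, strand setting and treatment of reads shared between genes: not given in the sources used here. The main test was edgeR 4.0.16 under R 4.3.3 (quasi-likelihood F test after filterByExpr and TMM, adjusted over all genes), each cell type alone, and the difference between cell types as an interaction over all 8 libraries. SE is the size of the log2 change divided by the square root of F. Fits were tested on simulated counts. CPM is by library total, ± SD over 2 libraries, and per-kilobase levels use merged GENCODE M21 exons. Chi-square per gene between replicates was 13.9 to 28.75, above sampling noise. Alternatives were DESeq2 1.42.0, limma-voom 3.58.1, other scalings and filters, left-out libraries and a replicate block. The members, gene lists and markers were chosen with earlier results of these data known. All members were named. Of each other list, at most the 2 called genes of largest change were named, if their mean log2 CPM was 1 or more, per cell type, and for Inhba, Tgfb1 and Smad7 the 3 genes of most similar pattern.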

Additional observations from a re-analysis of the deposited data

Results flagged for a closer look

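The log2 change with co-culture differed between ILC2s and CD8 T cells, by the edgeR interaction test over all 8 libraries, for 4 of the 10 members, where 53.5% of 15532 genes passed that test. The change in ILC2s minus that in CD8 T cells was -7.18 for Inhba, -1.71 for Tgfbr1, -0.80 for Smad7 and -1.91 for Skil. All 4 stayed below 0 and past the threshold under the 16 alternatives run, with ranges of -8.61 to -7.06 for Inhba, -3.12 to -1.59 for Tgfbr1, -2.22 to -0.64 for Smad7 and -3.34 to -1.74 for Skil. The median difference over all genes was -0.121 with TMM, 0.001 with DESeq2 size factors and -1.54 with identity scaling. ILC2 libraries labelled alone also held the stroma, macrophage, T cell, epithelium, granulocyte and mast cell markers given in the report. CD8 libraries labelled alone held more Cpa3 and red cell and platelet markers. Those labelled co-cultured had a higher sum of CD4 and regulatory T cell markers, among others. The part of these markers in the differences was not tested.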

How the results depend on the processing

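Leaving out 1 library at a time, 141 of the members' results across the 3 comparisons kept their direction and side of the threshold, 6 lost their call, 3 gained one and 10 turned. All 10 were differences between the cell types near 0 that were called neither way, with ranges over the left-out libraries of -0.07 to 0.19 for Tgfb1, -0.03 to 0.23 for Tgfb3, -0.19 to 0.13 for Tgfbr2 and -0.50 to 0.03 for Acvr2a. Over the other alternatives 237 kept both, 5 lost a call, 4 gained one and 13 turned. Of those 13, 6 were called neither way: the ILC2 change of Smad7 (-0.01) and the differences for Tgfb1 (-0.10) and Tgfb3 (-0.05) with library totals, and the difference for Tgfbr2 with DESeq2 size factors (0.12), the DESeq2 test (0.12) and a minimum of 1 CPM in 2 libraries (0.04). The other 7 turned with libraries scaled to identity markers. With that scaling the log2 changes in ILC2s were -1.20 for Tgfb1, -0.15 for Tgfbr2, -0.54 for Smad3, -1.35 for Smad7, -0.96 for Acvr2a and, of the other pathway genes named, -0.90 for Smad4, and the differences between ILC2s and CD8 T cells were -1.35 for Tgfb1 and -1.31 for Tgfb3. The number of genes called in the test of that difference was then 12476, against 8317, and 10 members against 4, and 2.65% of those genes were higher in place of 39.1% (29.0% with library totals alone). These follow from the shift of all genes that the scaling makes. The difference for Tgfb2 was called with this scaling (-3.01), without CD8 alone replicate 1 (-2.36) and without CD8 co-cultured replicate 2 (-2.24). Replicate numbers did not pair the libraries (correlation of deviations 0.078 in ILC2s and 0.014 in CD8 T cells), and a replicate block called 11054 genes in ILC2s, 9731 in CD8 T cells and 8457 for the difference, and changed no member's call. Calls rest on 2 libraries per group, and low depth limits Tgfb2 in CD8 T cells (2 to 29 reads per library).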

Other observations

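Of the genes named for CD8 T cells, 3 were looked up in ILC2s after their values were seen. Bmp7 had 89.2 ± 2.79 CPM in ILC2s labelled co-cultured and 15.1 ± 1.87 CPM in those labelled alone (SD, n = 2; log2 change 2.78, and 1.23 with identity scaling), and its change did not pass as different from that in CD8 T cells (log2 difference 0.20, edgeR adjusted p = 0.416). Ldlrad4 also rose in ILC2s, to 153 ± 2.15 CPM labelled co-cultured, against 43.2 CPM labelled alone (log2 change 2.04, and 0.49 with identity scaling). Itgae had 3.60 ± 0.477 CPM in ILC2s labelled co-cultured and 7.57 CPM in those labelled alone, and its log2 change in ILC2s minus that in CD8 T cells was -3.41 (edgeR adjusted p = 5.03e-09).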
